A study of Mus musculus with 75 samples.

Results

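Guanylate-binding proteins (Gbps) are large interferon-induced GTPases, and their transcripts were followed in mouse enteric glia after injection of LPS (lipopolysaccharide, a bacterial endotoxin). Members were taken by gene symbol, Gbp2 to Gbp11. The rule used no values, but it was set with earlier results of these data known. Of these 10 symbols, 9 had a row in both deposited count tables, which share 21051 symbols, and Gbp11 was not analysed here. All 9 passed the filter on low counts at both times, among 13107 genes tested at 2 h and 14903 tested at 24 h.

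The series holds 75 RNA-seq libraries in 16 groups, made with Smart-seq2, a full-length cDNA method that amplifies by PCR and carries no molecular identifiers. All mice were adults that carried an eGFP reporter of glia, and the labels call the sampled cells enteric glial cells (EGC). In the 2 h experiment, reporter mice received one intraperitoneal injection of 2 mg/kg LPS or of PBS (phosphate-buffered saline), and the myenteric plexus of the small intestine (SI) and of the colon gave 4 libraries per group. In the 24 h experiment, the same injections were given to Gpr37WT reporter mice, called wild type below, and to Gpr37-/- reporter mice, called knockout, which lack the orphan receptor Gpr37. Wild types gave 6 PBS and 4 LPS libraries from small intestine and 4 PBS and 5 LPS libraries from colon, and knockouts gave 4 PBS and 5 LPS libraries from small intestine and 5 PBS and 4 LPS libraries from colon. Both sexes were present in every group. The labels number 22 mice at 24 h, 15 of them sampled in both regions, and name no animal at 2 h, where p-values therefore measure only the spread between libraries. Untreated reporter mice gave 22 further libraries from the myenteric and submucosal plexus, used here for levels only.

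Gbps belong to the dynamin superfamily. They assemble on the vacuoles of intracellular microbes and on cytosolic bacteria, and they help to release lipopolysaccharide to caspase-11 and so to trigger inflammasomes. Their transcription is driven mainly by interferon-γ, and also by type I interferons, through transcription factors such as IRF1 that act on interferon-stimulated response elements and gamma-activated sites. In the mouse they lie in 2 gene clusters (GENCODE M21, GRCm38). Gbp5 (chr3:142493978-142522344), Gbp7 (chr3:142530342-142550149), Gbp3 (chr3:142560026-142573209) and Gbp2 (chr3:142620602-142638008) stand on the plus strand of chromosome 3, together with Gbp2b, the family member outside the rule. Gbp8 (chr5:105014150-105139540), Gbp9 (chr5:105077630-105139539), Gbp4 (chr5:105115767-105139586), Gbp10 (chr5:105215699-105239533) and Gbp6 (chr5:105270702-105293698) stand on the minus strand of chromosome 5. Gbp6 and Gbp10 are near copies. Of the 50-base stretches of Gbp10 transcripts, 84.1% also occur in another gene, 73.3% in Gbp6, and of those of Gbp6 70.7% do, 65% in the gene model Gm43302, so the split of reads among Gbp6, Gbp10 and Gm43302 is uncertain. In Gbp8 and Gbp7 the shared part was 18.1% and 12.7%, and in Gbp2, Gbp3, Gbp4, Gbp5 and Gbp9 at most 8.05%. Exons of Gbp4, Gbp8 and Gbp9 overlap over at most 1.77% of their bases.

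RefSeq start-site windows on GRCm38.p6, from 250 bases before to 50 after a start, were held for the chromosome 3 members and not for Gbp4, Gbp6, Gbp8, Gbp9 and Gbp10. The windows of the 4 chromosome 3 members are shown because these genes share the same interferon element and differ in their response to LPS below. All are on the plus strand and read 5′ to 3′, and capitals mark TTTCNNTTTC, a short form of the interferon-stimulated response element. The windows are chr3:142496684-142496983 for Gbp5, chr3:142620413-142620712 for Gbp2, chr3:142559794-142560093 for Gbp3 and chr3:142530086-142530385 for Gbp7.
Gbp5: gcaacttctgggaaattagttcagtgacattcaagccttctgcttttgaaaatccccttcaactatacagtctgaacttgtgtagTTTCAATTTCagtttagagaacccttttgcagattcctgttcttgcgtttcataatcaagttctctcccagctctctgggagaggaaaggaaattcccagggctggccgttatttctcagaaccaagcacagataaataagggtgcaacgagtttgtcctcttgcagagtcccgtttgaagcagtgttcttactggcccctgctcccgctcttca
Gbp2: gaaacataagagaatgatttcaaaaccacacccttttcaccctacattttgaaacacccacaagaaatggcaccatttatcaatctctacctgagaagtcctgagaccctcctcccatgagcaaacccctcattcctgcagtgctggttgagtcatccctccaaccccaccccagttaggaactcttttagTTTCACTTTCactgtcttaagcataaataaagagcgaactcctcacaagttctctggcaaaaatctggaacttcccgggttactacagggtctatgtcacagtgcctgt
Gbp3: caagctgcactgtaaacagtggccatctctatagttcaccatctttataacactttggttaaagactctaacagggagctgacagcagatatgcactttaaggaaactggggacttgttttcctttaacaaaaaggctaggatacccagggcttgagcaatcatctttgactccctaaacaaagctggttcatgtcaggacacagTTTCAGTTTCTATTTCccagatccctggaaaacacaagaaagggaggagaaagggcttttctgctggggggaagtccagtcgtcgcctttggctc
Gbp7: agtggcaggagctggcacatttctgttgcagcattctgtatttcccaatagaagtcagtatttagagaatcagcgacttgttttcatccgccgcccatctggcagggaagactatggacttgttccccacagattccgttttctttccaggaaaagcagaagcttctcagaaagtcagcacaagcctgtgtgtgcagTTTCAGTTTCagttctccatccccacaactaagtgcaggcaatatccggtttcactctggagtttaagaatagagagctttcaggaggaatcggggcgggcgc
The element began at position -165 in Gbp5, -59 in Gbp2, -45 and -39 in Gbp3, where 2 copies overlap, and -53 in Gbp7, counted from the annotated start. Searched on both strands, it occurred in 3.44% of 32851 such windows of all genes. The gamma-activated site TTCNNNGAA, which reads as itself on the opposite strand, occurred in 8.3% of windows. It stood at -245 and -52 in Gbp5 and at -106 and -87 in Gbp7, and not in the windows of Gbp2 and Gbp3. A second annotated start of Gbp3 held neither motif. A match is a match of letters only.

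Library totals ran from 1990744 to 7883251 counts at 2 h and from 2882539 to 33283346 at 24 h, and 3 counts corresponded to 0.359 to 1.46 CPM and 0.0933 to 1.09 CPM. CPM are counts scaled to a common library total with TMM factors. Glial markers (Sox10, S100b, Gfap, Erbb3, Foxd3) summed to 283.1 CPM or more in every library of both experiments. Fibroblast markers (Col1a1, Col1a2, Dcn, Pdgfra, Lum) were abundant too. In wild types with PBS their sum had a median of 6156 CPM in small intestine (1422 to 10440) and 14820 CPM in colon (11130 to 19270), where that of the glial markers was 594.6 and 1001 CPM. At 2 h smooth muscle markers (Myh11, Acta2, Tagln, Cnn1, Actg2) had median sums in colon of 31790 CPM with PBS and 32420 CPM with LPS. Glial markers had 870.1 and 1000 CPM there. In small intestine at 2 h the medians were 6557 and 8083 CPM for smooth muscle markers, 1713 and 1511 CPM for neuronal markers and 962.7 and 962.4 CPM for glial markers. The part of these cells in the Gbp results was not tested. Mice numbered 10 and below had a median share of mitochondrial counts of 15.4% (12 libraries), against 4.57% in mice numbered 11 and above (25 libraries), a division known from earlier results on these data. In the check of the deleted gene, 17 of 18 knockout libraries held 3 or fewer counts of Gpr37, and so did 4 of 19 wild-type libraries (mouse 3 in both regions and mice 5 and 8 in colon, all with LPS). The small intestine library of mouse 8 held 100 counts, and mouse 3 held 0 in small intestine, where the other wild-type libraries at 24 h held 29 to 158, and 2 in colon. Without both libraries of mouse 3, edgeR called 7 members with LPS in wild-type small intestine and 5 in wild-type colon, as with them, and 0 between genotypes. Colon libraries at 2 h, whose labels name no Gpr37 deletion, held 0, 41, 6, 0, 1, 1, 12 and 0 counts, while the other 6 wild-type colon libraries at 24 h held 20 to 110 and knockout colon 0 to 9. The labels of mice 3 and 5 and of the colon library of mouse 8 are thus not borne out by their Gpr37 counts, and directions drawn from them rest on the labels. In bulk samples such as these, fewer cells of a type and less RNA per cell cannot be told apart.

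At 2 h after LPS, Gbp5 was the single member that rose past the threshold, and it did so in both regions. Gbp5, a Gbp with a prenylation motif known for its part in inflammasome activation, stood at 64.5, 104, 116 and 102 CPM in the 4 small intestine LPS libraries and at 8.39, 0, 2.41 and 1.32 CPM in the 4 PBS libraries. Every LPS library lay above every PBS library. The log2 fold change was 4.94 ± 1.10 (SE), with an adjusted p of 0.0331 by edgeR's quasi-likelihood test, adjusted over all genes after Benjamini and Hochberg. In colon, Gbp5 stood at 5.57, 208, 84.6 and 88.7 CPM with LPS and at 3.73, 0, 0.333 and 3.91 CPM with PBS. The groups did not overlap, but the lowest LPS library, replicate 1, came close to the highest PBS library. That library also had the lowest macrophage and endothelial marker sums of the 4 (328.6 and 80.0 CPM), and their part in the result was not tested. The log2 fold change in colon was 5.51 ± 1.14 (edgeR adjusted p = 0.027). Members called were 1 of 9 in each region, against 1.08% of all genes called higher in small intestine and 0.74% in colon. The Gbp5 calls were close to the threshold. Without PBS replicate 2, 3 or 4 or LPS replicate 2, 3 or 4 the small intestine call was lost, with adjusted p up to 0.152, and without any 1 PBS library or LPS replicate 2 the colon call was lost, with adjusted p up to 0.102, while the log2 fold change stayed between 4.60 and 6.10. With the number in the descriptions as a replicate block neither call held (adjusted p = 0.0916 in small intestine and 0.0877 in colon).

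Gbp2, a prenylated Gbp that coats pathogen vacuoles, stood at 263, 925, 773 and 559 CPM with LPS and at 163, 314, 268 and 239 CPM with PBS in small intestine at 2 h. Of the 4 LPS libraries, 3 exceeded all PBS libraries and replicate 1, whose neutrophil marker sum of 158 CPM stood far above the others (at most 8.58 CPM), fell among them. Its log2 fold change of 1.36 ± 0.35 did not pass (edgeR adjusted p = 0.0973), while the DESeq2 Wald test called it (adjusted p = 0.0154). In colon Gbp2 had 367, 699, 727 and 342 CPM with LPS against 252, 365, 296 and 298 CPM with PBS, a log2 fold change of 0.82 ± 0.35 (edgeR adjusted p = 0.574). Gbp6 in small intestine averaged 118 ± 69.6 CPM in LPS and 36.4 ± 14.7 CPM in PBS libraries (SD, 4 each), a log2 fold change of 1.70 ± 0.49 that was not called by edgeR (adjusted p = 0.185) and was called by DESeq2 (adjusted p = 0.0414). With the number in the descriptions as a replicate block edgeR called both Gbp2 and Gbp6 in small intestine (adjusted p = 0.00882 and 0.0101). The other members, Gbp3, Gbp4, Gbp7, Gbp8, Gbp9 and Gbp10, had overlapping groups in both regions, and their log2 fold changes ran from -2.74 (Gbp8, small intestine) to 2.20 (Gbp8, colon), neither called. The median log2 fold change of the 9 members was 0.70 in small intestine and 0.82 in colon, against -0.02 and 0 over all genes tested. Gbp7, whose start-site window carries the response element and 2 gamma-activated sites, changed by 0.34 ± 0.39 and 0.19 ± 0.39.

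**Figure D1:**
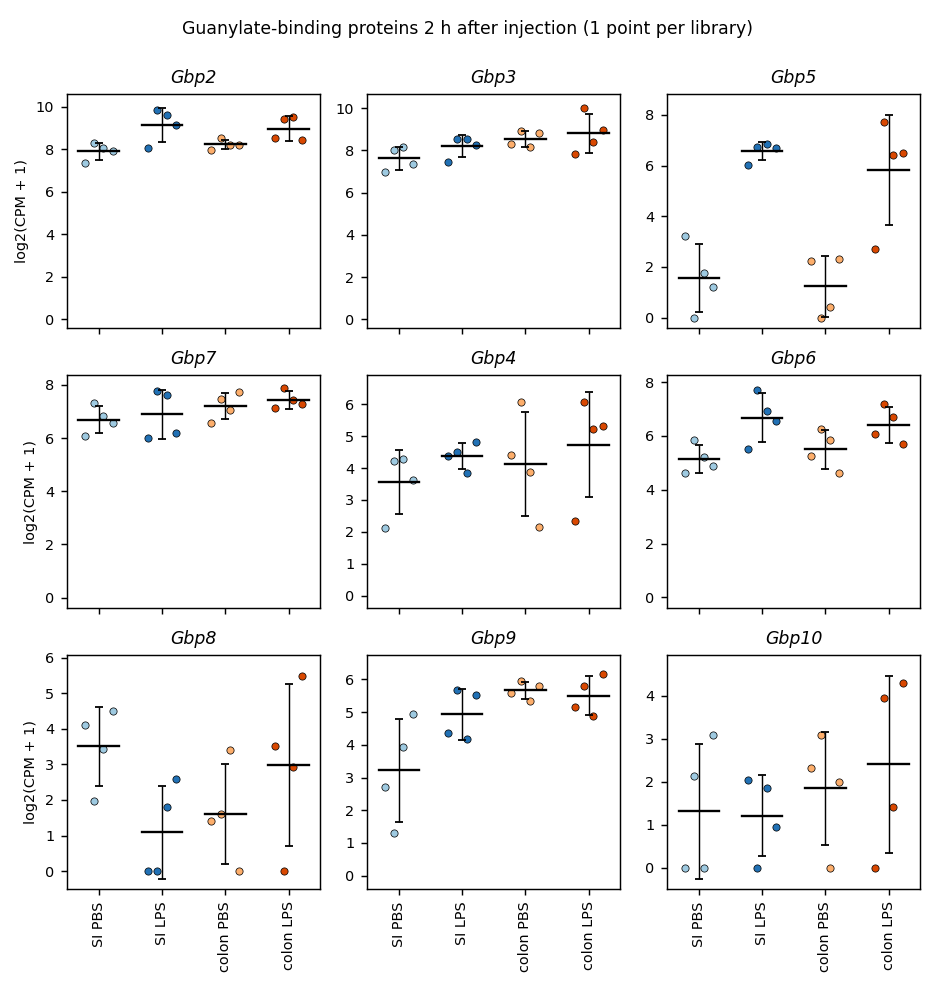
Levels of the 9 members 2 h after injection, as log2(CPM + 1), with 1 point per library (4 per group), the mean of the log values as a bar and its SD as an error bar. Gbp5 is the one panel in which the LPS points lie above the PBS points in both regions.

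The 2 regions were compared through the difference between their LPS responses at 2 h. No member was called, as no gene of the 13107 was (0% called in either direction by edgeR), and 0 members passed at an unadjusted p under 0.05 (3.45% of genes) or by DESeq2. For Gbp5 the colon response exceeded that of small intestine by 0.57 on the log2 scale, with a 95% interval from -2.41 to 3.56, and for Gbp2 the difference was -0.54 (-1.60 to 0.52).

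At 24 h the response was wider. In wild-type small intestine 7 of the 9 members rose with LPS (Gbp2, Gbp3, Gbp4, Gbp5, Gbp6, Gbp9 and Gbp10), against 4.18% of all genes, and in each of the 7 every LPS library lay above every PBS library, as in 6.21% of all genes. Gbp2 was the most changed, at 3766, 4654, 4922 and 2602 CPM in LPS mice 3, 8, 16 and 13 against 113 to 426 CPM (median 196) in the 6 PBS libraries. The lowest LPS library, mouse 13, stood far above the highest PBS library. Its log2 fold change was 4.03 ± 0.49, or 16.3-fold (edgeR adjusted p = 1.82e-06). Gbp6 followed at 511, 799, 643 and 366 CPM against 5.18 to 63.1 CPM (median 35.8), a log2 fold change of 3.94 ± 0.56 (edgeR adjusted p = 1.62e-05). Gbp10, its near copy, was less abundant, at 61.6, 21.1, 62.2 and 24.2 CPM against 0.0893 to 9.23 CPM (median 2.93). Its log2 fold change was 3.51 ± 0.75 (edgeR adjusted p = 0.00291).

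Gbp5 was still raised at 24 h in wild-type small intestine, at 79.3, 145, 110 and 54.0 CPM against 2.00 to 14.8 CPM (median 6.71). Both groups were separate, and the log2 fold change was 3.68 ± 0.69 (edgeR adjusted p = 0.000646). Set beside the 2 h values, which come from other mice and another table, the LPS levels of Gbp5 were alike in size, 96.97 ± 39.2 CPM at 24 h and 96.7 ± 22.3 CPM at 2 h (SD, n = 4 each), whereas those of Gbp2 were 3986 ± 1047 CPM and 630 ± 287 CPM. The 2 times were not tested against each other. Gbp4, a chromosome 5 member, rose by 3.63 ± 0.51 on the log2 scale, from 23.1 ± 11.7 CPM (n = 6) to 286 ± 100.4 CPM (n = 4), with edgeR adjusted p = 1.58e-05. Gbp3 rose by 2.58 ± 0.41, from 121 ± 50.97 to 722 ± 206 CPM, with edgeR adjusted p = 8.2e-05. Gbp9 rose least of the called members, by 1.77 ± 0.51, from 28.0 ± 13.3 to 95.3 ± 30.1 CPM (edgeR adjusted p = 0.0277). The Gbp9 call was lost without LPS mouse 16 (adjusted p = 0.1), PBS mouse 24 (0.0579) or PBS mouse 9 (0.0549), and the other 6 calls held without any 1 library.

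Gbp7 and Gbp8 were the members not called. Gbp7, known for bringing the oxidative and autophagic machinery to bacterial vacuoles, had 139, 135, 321 and 195 CPM with LPS and 61.6 to 148 CPM (median 114) with PBS. The groups overlapped, the log2 fold change was 0.80 ± 0.48 and edgeR's adjusted p was 0.342. Among mice numbered 11 and above it was 1.25 and was called (edgeR adjusted p = 0.0221). Gbp8 was low throughout, at 6.33 ± 1.54 CPM in the 4 LPS and 7.95 ± 8.602 CPM in the 6 PBS libraries.

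In wild-type colon 5 of 9 members rose (Gbp2, Gbp3, Gbp4, Gbp5 and Gbp6), against 3.96% of all genes, and in each of the 5 every LPS library lay above every PBS library, as in 4.35% of all genes. Gbp2 stood at 4151, 4431, 1740, 4897 and 1110 CPM in LPS mice 13, 16, 3, 5 and 8 and at 424, 204, 243 and 304 CPM with PBS. Mice 3 and 8 were the low LPS libraries and mouse 5 the highest, and all 3 are libraries with few Gpr37 counts. The same mice were low for Gbp3, Gbp4 and Gbp6, and mouse 8 held the lowest Gbp5. The log2 fold change of Gbp2 was 3.48 ± 0.55 (edgeR adjusted p = 0.00019). Gbp6 stood at 896, 859, 281, 838 and 284 CPM against 57.5, 47.9, 72.1 and 78.4 CPM, a log2 fold change of 3.30 ± 0.62 (edgeR adjusted p = 0.00122). Gbp5 stood at 99.02, 107, 97.2, 210 and 44.96 CPM against 9.21, 10.3, 12.4 and 16.5 CPM, a log2 fold change of 3.21 ± 0.77 (edgeR adjusted p = 0.00987). Gbp4 and Gbp3 rose by 2.74 ± 0.56 and 2.35 ± 0.45 (edgeR adjusted p = 0.00257 and 0.00157). None of the 5 calls was lost when any 1 library was left out.

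Gbp10 in wild-type colon had 49.5, 51.8, 39.2, 36.2 and 11.2 CPM with LPS and 9.57, 14.0, 9.62 and 11.8 CPM with PBS. Mouse 8 alone lay within the PBS range, and the log2 fold change of 1.74 ± 0.79 was not called (edgeR adjusted p = 0.163). Gbp9 changed by 1.06 ± 0.54 (adjusted p = 0.224) and Gbp7 by 0.50 ± 0.51 (adjusted p = 0.582). Both had 2 LPS libraries, mice 3 and 8, below the PBS range. Gbp8 had a log2 fold change of -1.98 ± 0.89 (adjusted p = 0.155), from 12.3 ± 7.90 CPM (n = 4) to 3.14 ± 2.64 CPM (n = 5).

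**Figure D2:**
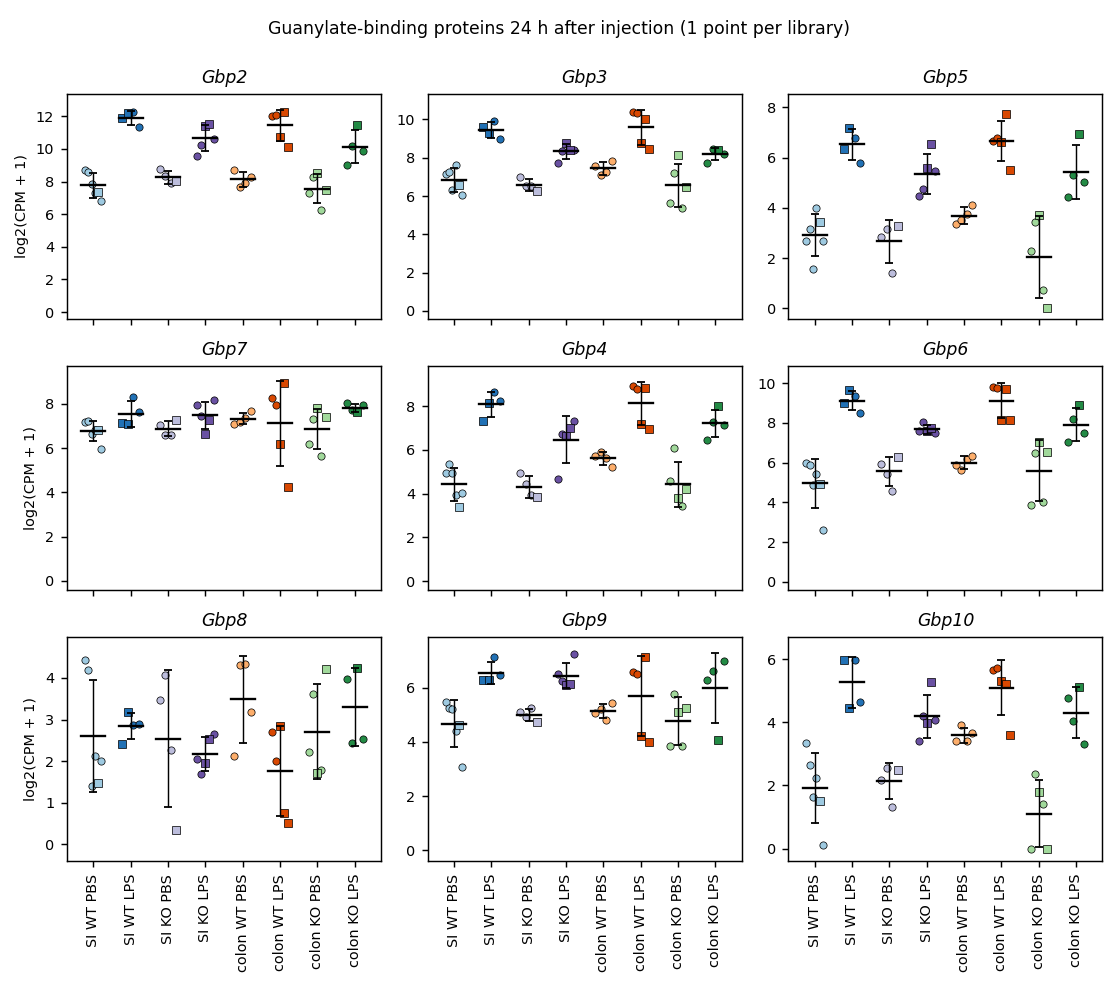
Levels of the 9 members 24 h after injection, as log2(CPM + 1), by region, genotype (WT, wild type; KO, knockout) and treatment, with 1 point per library. Squares are mice numbered 10 and below and circles are mice numbered 11 and above. Bars are means of the log values and error bars their SD. In wild types the LPS points of Gbp2, Gbp3, Gbp4, Gbp5 and Gbp6 stand clear of the PBS points in both regions, and in Gbp7 and Gbp8 they do not.

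In knockouts edgeR called fewer members. In small intestine 3 of 9 rose with LPS (Gbp2, Gbp3 and Gbp4), against 0.53% of all genes, and in colon 4 of 9 (Gbp2, Gbp4, Gbp5 and Gbp10), against 0.637%. Every LPS library lay above every PBS library in 6 members in small intestine (3.09% of all genes) and in 4 in colon (2.07%). Gbp4, called in small intestine, was not among the 6, since LPS mouse 11 (24.1 CPM) lay below PBS mouse 12 (30.2 CPM). DESeq2 called 6 members in small intestine and 5 in colon. In small intestine Gbp2 had 762, 1193, 2665, 3011 and 1560 CPM in LPS mice 11, 17, 10, 6 and 21, against 435, 327, 238.4 and 260 CPM with PBS. The groups were separate, with mice 10 and 6 the highest. Those libraries also had T and NK cell marker sums of 274.8 and 188.8 CPM, against 25.8 CPM or less in the other 3 LPS libraries, and shares of mitochondrial counts of 16.57% and 12.17%, against 5.95% or less. The part of either in the result was not tested. Its log2 fold change was 2.54 ± 0.53 (edgeR adjusted p = 0.0111). Gbp4 rose by 2.40 ± 0.55 (adjusted p = 0.0277) and Gbp3 by 1.79 ± 0.44 (adjusted p = 0.0452). With the 2 knockout groups fitted alone edgeR called Gbp3 and Gbp6, and not Gbp2 and Gbp4. Leaving out PBS mouse 20 or PBS mouse 7 ended all 3 calls, with adjusted p of 0.0572 and 0.0528 for Gbp2. Gbp3 was also lost without LPS mouse 17, 10 or 6 or PBS mouse 12 or 15, and Gbp4 without LPS mouse 10 or 6 or PBS mouse 15.

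Gbp5 and Gbp6 in knockout small intestine had separate groups without passing the threshold. Gbp5 had 21.1, 25.8, 46.5, 91.5 and 42.8 CPM with LPS and 6.24, 8.04, 1.68 and 8.597 CPM with PBS, a log2 fold change of 2.90 ± 0.77 (edgeR adjusted p = 0.0676). Gbp6 had 191, 260, 189, 216 and 176 CPM against 59.2, 41.5, 23.1 and 78.0 CPM, a log2 fold change of 2.03 ± 0.59 (edgeR adjusted p = 0.0958). DESeq2 called both, and Gbp10 as well (adjusted p = 0.00116, 0.00745 and 0.0169). Gbp9 and Gbp10, also without overlap, changed by 1.52 ± 0.55 and 2.39 ± 0.82 (edgeR adjusted p = 0.224 and 0.182).

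In knockout colon Gbp2 had 525.5, 1156, 2795 and 941 CPM in LPS mice 11, 17, 2 and 21 and 154, 315, 370, 75.6 and 180 CPM with PBS. Mouse 2 was the highest LPS library by a wide margin. It had 17.87% mitochondrial counts, against 2.343%, 6.309% and 5.839% in mice 11, 17 and 21, and the part of this in the result was not tested. The log2 fold change was 2.63 ± 0.50 (edgeR adjusted p = 0.00705). Gbp10 had 26.2, 15.5, 34.1 and 8.92 CPM with LPS and 0, 4.10, 2.43, 1.64 and 0 CPM with PBS, a log2 fold change of 3.61 ± 0.81 (edgeR adjusted p = 0.0219). Gbp5 rose by 3.28 ± 0.73 (adjusted p = 0.021) and Gbp4 by 2.60 ± 0.53 (adjusted p = 0.0102). None of the 4 was called with the knockout colon groups fitted alone. Without mouse 2 none was called either. The log2 fold changes were then 2.00 for Gbp2, 2.28 for Gbp4, 2.47 for Gbp5 and 3.28 for Gbp10 (adjusted p = 0.0789, 0.0671, 0.215 and 0.0896). Gbp5 was also lost without PBS mouse 12, and Gbp10 without PBS mouse 12 or 20. Gbp3 and Gbp6 had overlapping groups and changed by 1.31 ± 0.42 and 1.98 ± 0.56 (adjusted p = 0.163 and 0.0935), and DESeq2 called Gbp6 (adjusted p = 0.0142).

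Restricting the fit to mice numbered 11 and above left 0 of 9 members called in knockout small intestine, against 0.339% of all genes, and 1, Gbp2, in knockout colon, against 0.45% (log2 fold change 2.29, edgeR adjusted p = 0.0479). There Gbp2 in small intestine changed by 1.87 (adjusted p = 0.099). In wild types the same restriction gave 8 called in small intestine and 5 in colon, against 5.52% and 4.29%. The LPS groups then held 3 knockout mice and 2 wild-type mice per region. The median log2 fold change over the 9 members in all mice was 3.51 in wild-type small intestine, 2.35 in wild-type colon, 2.03 in knockout small intestine and 1.98 in knockout colon, against -0.13, -0.03, -0.05 and -0.07 over all genes tested. Across the 4 comparisons at 24 h Gbp2 and Gbp4 were called in 4, Gbp3 and Gbp5 in 3, Gbp6 and Gbp10 in 2, Gbp9 in 1 and Gbp7 and Gbp8 in 0.

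**Figure D3:**
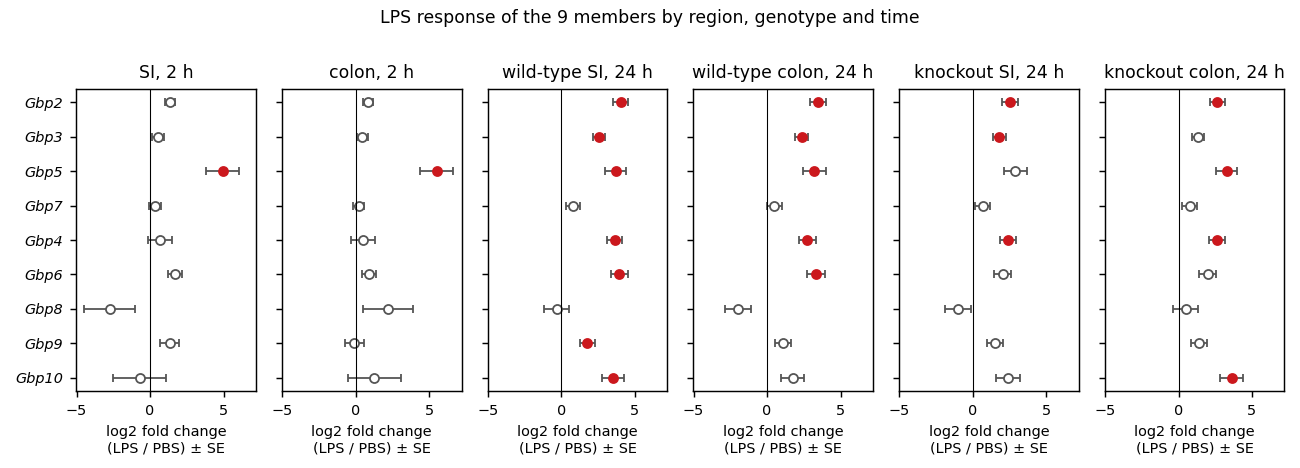
Log2 fold change of each member with LPS against PBS, with its SE, in the 6 comparisons. Filled red points passed an adjusted p of 0.05 by edgeR's quasi-likelihood test over all genes and open points did not. At 2 h Gbp5 stands apart from the other members, and at 24 h Gbp2 to Gbp6 lie to the right of 0 in every comparison while Gbp7 stays between 0.50 and 0.80 and Gbp8 between -1.98 and 0.50.

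Whether the LPS response differed with genotype was tested as a difference between responses. No member was called in small intestine or in colon, and no gene was (0% in either region, edgeR). By DESeq2 0 members were called in either region. At an unadjusted p under 0.05, 2 members passed in small intestine, against 3.88% of all genes, and 0 in colon, against 13.5%. These 2 were Gbp6, with a response smaller in knockouts by 1.91 on the log2 scale (-1.91 ± 0.76, 95% interval -3.46 to -0.36, unadjusted p = 0.017, edgeR adjusted p = 1), and Gbp2 (-1.49 ± 0.67, -2.85 to -0.12, unadjusted p = 0.0334, adjusted p = 1). In colon the differences were -1.32 (-2.93 to 0.29) for Gbp6, -0.85 (-2.26 to 0.57) for Gbp2 and 0.08 (-1.89 to 2.04) for Gbp5. Gbp8 and Gbp10 went the other way, at 2.48 (-0.04 to 5.00) and 1.87 (-0.32 to 4.06), and 5 of the 9 estimates in colon were above 0, with a median of 0.08. The interval of Gbp5 leaves room for a smaller or a larger response in knockouts.

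Levels under LPS were also compared directly between genotypes. In small intestine no member was called, against 0.0134% of all genes (edgeR), 4 passed at an unadjusted p under 0.05 (Gbp2, Gbp3, Gbp4 and Gbp6), against 7.63% of all genes, and 0 by DESeq2. Gbp6 had 176 to 260 CPM in the 5 knockout libraries and 366 to 799 CPM in the 4 wild-type libraries, without overlap, a log2 difference of -1.49 ± 0.55 (edgeR adjusted p = 0.467). Gbp3 had 212 to 442 CPM in knockouts and 503 to 983 CPM in wild types, again without overlap, a difference of -1.12 ± 0.42 (adjusted p = 0.477). All 9 estimates were below 0, from -0.04 for Gbp7 to -1.49 for Gbp6, with a median of -1.12 against 0.05 over all genes.

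In colon no member was called between genotypes under LPS, against 0.429% of all genes (edgeR), and 3 passed at an unadjusted p under 0.05 (Gbp2, Gbp3 and Gbp6), against 16.4% of all genes. Gbp3 had 212, 349, 337 and 293 CPM in knockouts and 1360, 1290, 442, 1044 and 349 CPM in wild types. The highest knockout library, at 348.7 CPM, and the lowest wild-type library, mouse 8 at 348.9 CPM, were all but equal. The difference was -1.59 ± 0.44 (edgeR adjusted p = 0.0816), and DESeq2 called it, alone of the members (adjusted p = 0.00777). Among mice numbered 11 and above 2 members were called lower in knockout colon, against 0.698% of all genes, Gbp3 by -2.24 (edgeR adjusted p = 0.0181) and Gbp2 by -2.31 (adjusted p = 0.0329), with 3 knockout and 2 wild-type LPS libraries left. In these libraries fibroblast marker sums were 14960, 14600 and 14380 CPM in knockout mice 11, 17 and 21 and 6999 and 8583 CPM in wild-type mice 13 and 16. Glial marker sums were 732, 769.4 and 564.9 CPM against 1119 and 1974 CPM. The genotypes did not overlap in either sum, and the part of this in the result was not tested. The median difference over members in all mice was -1.04, against 0 over all genes, and 2 of the 9 estimates were above 0, Gbp8 at 1.75 and Gbp9 at 0.13.

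The genotypes were also compared without LPS. No member was called in small intestine or colon with PBS, and no gene was (0% in each, edgeR). At an unadjusted p under 0.05, 0 members passed in small intestine (1.72% of genes) and 1 in colon (4.22%). This was Gbp10, at 0, 4.10, 2.43, 1.64 and 0 CPM in knockouts and 9.57, 14.0, 9.62 and 11.8 CPM in wild types. The groups were separate, the difference was -2.69 ± 0.79 (unadjusted p = 0.00173, edgeR adjusted p = 1), and DESeq2 called it (adjusted p = 0.0359) while calling no member in small intestine. The wild-type PBS colon libraries all came from mice numbered 11 and above, and 2 of the 5 knockout libraries did not.

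**Figure D4:**
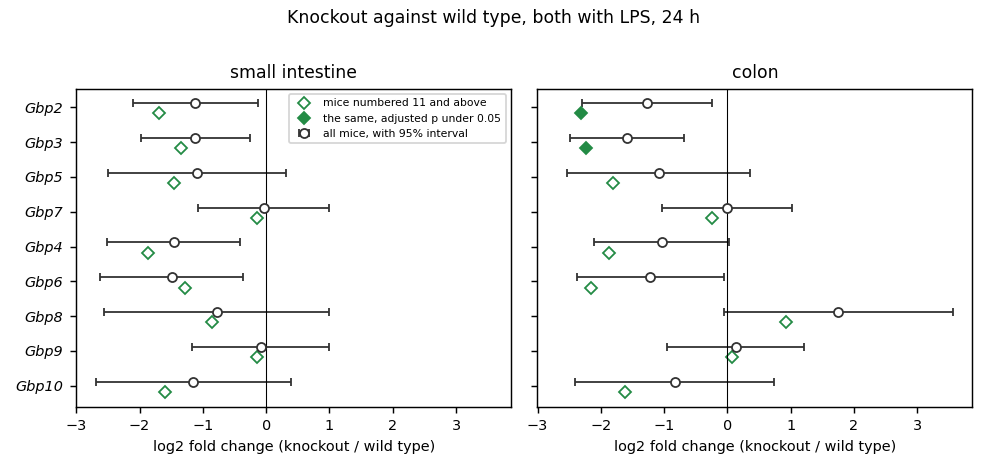
Log2 difference of each member between knockout and wild type, both with LPS at 24 h. Open circles with 95% intervals are all mice, diamonds are mice numbered 11 and above alone, and filled diamonds have an edgeR adjusted p under 0.05. Estimates for Gbp2 to Gbp6 lie below 0 in both regions, and Gbp2 and Gbp3 in colon are the filled ones.

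The LPS responses at 24 h were compared between regions as well. In wild types the colon response minus the small intestine response ran from -1.77 (Gbp10) to -0.23 (Gbp3), and in knockouts from -0.48 (Gbp3) to 1.52 (Gbp8). No member was called in wild types or knockouts (0% of genes in each, edgeR), 0 members passed at an unadjusted p under 0.05 (7.56% of genes in wild types and 4.13% in knockouts), and 0 by DESeq2. For Gbp2 the 95% intervals were -1.93 to 0.82 in wild types and -1.32 to 1.49 in knockouts. In the 15 mice sampled in both regions, Gbp2 was higher in small intestine than in colon in 12 (5 of 8 wild types and 7 of 7 knockouts), Gbp4 was higher in colon in 10, and the other 7 members were higher in colon in 6 to 9.

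Per kilobase of annotated exon, Gbp2 was the most abundant member in all groups at 24 h, followed by Gbp3. In wild-type small intestine with PBS the levels were 96.9 ± 51.3 CPM per kb for Gbp2, 37.1 ± 15.6 for Gbp3 and 20.2 ± 5.58 for Gbp7 (SD, n = 6), with overlap between neighbours. Gbp6, Gbp9, Gbp4, Gbp8, Gbp5 and Gbp10 followed between 6.34 and 0.96 CPM per kb, each overlapping the next. With LPS the order changed, and Gbp2 (1584 ± 416 CPM per kb), Gbp3 (221 ± 63.0) and Gbp6 (97.3 ± 31.1) each lay clear of the next (n = 4). Gbp4 (38.2 ± 13.4) then stood level with Gbp7 (35.2 ± 15.4), and Gbp8 was lowest (1.84 ± 0.446). In wild-type colon with LPS Gbp2 (1298 ± 682, n = 5) lay clear of Gbp3 (275 ± 145). Gbp3, Gbp6, Gbp4, Gbp7, Gbp5, Gbp9 and Gbp10 followed in this order with overlap between neighbours, and Gbp8 lay clear below Gbp10. In untreated myenteric glia Gbp3 and Gbp2 were level in small intestine (84.6 ± 9.40 and 80.2 ± 19.4 CPM per kb, n = 6) and in colon (146 ± 71.3 and 156 ± 86.5, n = 5), and Gbp5 averaged 1.09 and 1.69.

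Other genes of the pathway were taken from lists by name. Among the immunity-related GTPases with Gbp2b, smaller interferon-induced GTPases that act on the same vacuoles, 3 of 8 tested rose in small intestine at 2 h and 2 of 8 in colon, with the same background shares as above. They were Ifi47 (log2 fold change 2.20 ± 0.29 and 1.56 ± 0.29), Irgm1 (2.03 ± 0.29 and 1.37 ± 0.29) and, in small intestine, Iigp1 (1.64 ± 0.38), an effector GTPase. Igtp changed by 0.71 ± 0.37 and 0.33 ± 0.37, neither called. At an unadjusted p under 0.05 there were 5 of the 8 in each region at 2 h, against 681 and 987 of 13107 genes. DESeq2 called 4 higher in small intestine and 2 in colon. At 24 h 6 of 9 tested rose in wild-type small intestine, against 4.18% of all genes (Ifi47, Irgm1, Iigp1, Igtp, Tgtp1 and Tgtp2). In wild-type colon 3 did, against 3.96% (Ifi47, Irgm1 and Iigp1). In knockouts edgeR called 0 in either region, against 0.53% of all genes in small intestine and 0.637% in colon. There 4 in small intestine and 5 in colon had an unadjusted p under 0.05 (11.5% and 12.4% of all genes), and DESeq2 called 1 and 2. In wild-type small intestine Ifi47 rose most, by 3.01 ± 0.46 (edgeR adjusted p = 4.63e-05), Irgm1 by 2.79 ± 0.36 and Tgtp2 least, by 1.88 ± 0.51. In knockouts Irgm1 changed by 1.05 ± 0.38 and 1.06 ± 0.37 in small intestine and colon, Iigp1 by 1.18 ± 0.40 and 1.37 ± 0.39 and Igtp by 0.71 ± 0.50 and 1.00 ± 0.49.

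Of the interferon ligands, receptors and transducers, 1 of 12 tested rose at 2 h in each region (1.08% and 0.74% of all genes), the transcription factor Irf1, by 3.22 ± 0.31 in small intestine and 3.42 ± 0.31 in colon (edgeR adjusted p = 3.27e-05 and 2.19e-05). At an unadjusted p under 0.05 there were 3 in each region at 2 h, against 681 and 987 of 13107 genes. DESeq2 called 3 higher in small intestine and 2 in colon. At 24 h Irf1 changed by 0.44 ± 0.38 in wild-type small intestine and was not called in any of the 4 comparisons. There 2 of 12 rose in wild-type small intestine (4.18% of all genes), Irf8 by 1.75 ± 0.48 and Stat2 by 1.28 ± 0.40 (adjusted p = 0.0216 and 0.0457), and 0 in the other 3 by edgeR. At an unadjusted p under 0.05 there were 5 in wild-type colon (24.8% of all genes) and 3 in each knockout region (11.5% and 12.4%), and DESeq2 called 1 higher in wild-type colon, 0 in knockout small intestine and 1 lower in knockout colon. Ifnb1 had 0 counts in all 37 libraries at 24 h, and Ifng had 0 in every library of 4 of the 8 groups there. Both were below the filter.

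Of the inflammasome and caspase-11 list, 2 of 7 tested rose at 2 h in small intestine (1.08% of all genes) and 1 in colon (0.74%). Il1b, the cytokine that inflammasomes mature, rose by 6.33 ± 1.02 and 9.07 ± 1.33. Casp4, which encodes caspase-11, rose in small intestine by 2.65 ± 0.57 (edgeR adjusted p = 0.0281) and by 1.38 ± 0.55 in colon without passing. At 24 h Casp4 rose in all 4 comparisons, by 2.26 ± 0.40 and 2.44 ± 0.45 in wild-type small intestine and colon and by 1.78 ± 0.43 and 2.30 ± 0.42 in knockouts (adjusted p at most 0.0418). Il18 also rose in wild-type colon, by 3.88 ± 1.20 (adjusted p = 0.0419). Epithelial markers had a median log2 fold change of 3.79 there, with sums of 3.37 to 259 CPM with PBS (median 54.0) and 4.55 to 4708 CPM with LPS (median 6.19). Of the 5, edgeR called 0, 2 had an unadjusted p under 0.05 and DESeq2 called 1 higher, and their part in the Il18 result was not tested. Gsdmd, the pore-forming substrate of caspase-11, was not called, with estimates from -0.13 ± 0.36 to 1.11 ± 0.37 at 24 h. By edgeR the called genes numbered 1 of 8 tested in wild-type small intestine and 2 in wild-type colon (4.18% and 3.96% of all genes), and 1 in knockout small intestine and 1 in knockout colon (0.53% and 0.637%). DESeq2 called 1 and 5 higher in wild types, 1 higher in knockout small intestine, and 1 higher and 1 lower in knockout colon.

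The genes most like the members over the 37 libraries at 24 h, by Pearson correlation of log2 CPM with the mean of the 9 members among 9325 genes, were Ifitm3 (r = 0.939), H2-T22 (0.931), Iigp1 (0.926), H2-Q6 (0.922) and Olfr56 (0.914). These libraries share the LPS and PBS groups, which enter every such value. With group means removed, 3 of the 5 remained among the top 5. The annotated exons of Olfr56 share 111 of their 4537 bases (2.4%) with Ifi47 on the same strand, and the part of this in its rank was not tested. Ifitm3, an interferon-induced membrane protein, rose in all 4 comparisons, by 1.31 ± 0.27 to 2.15 ± 0.25. Within the family, Gbp2 correlated with Gbp3 and Gbp6 at r = 0.93 each and with Gbp8 at -0.06, and with group means removed at 0.76, 0.72 and 0.29.

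Markers of other cells moved with LPS as well. At 24 h, of 6 neutrophil markers tested, edgeR called 4 higher in wild-type small intestine and 2 in wild-type colon (4.18% and 3.96% of all genes), and 1 in knockout small intestine and 1 in knockout colon (0.53% and 0.637%). At an unadjusted p under 0.05 the counts were 4, 4, 5 and 3, and by DESeq2 5, 3, 5 and 3. Their summed level was 0 to 3.61 CPM with PBS and 7.41 to 822 CPM with LPS in wild-type small intestine, and 0.0965 to 144 CPM and 9.32 to 2315 CPM in wild-type colon. In knockouts it was 0.156 to 0.693 and 7.74 to 1714 CPM in small intestine and 0.243 to 59.9 and 2.09 to 480 CPM in colon. Of 8 macrophage markers 1 was called lower in wild-type small intestine and none elsewhere, and of 6 endothelial and 5 T and NK cell markers none in any of the 4 comparisons, by edgeR. At an unadjusted p under 0.05 there were 0, 5 and 1 macrophage markers in wild-type colon, knockout small intestine and knockout colon (24.8%, 11.5% and 12.4% of all genes), 0 endothelial markers in all 4 comparisons, and 1 T and NK cell marker in each knockout region. DESeq2 called 1 macrophage marker lower in wild-type small intestine and 1 higher in knockout small intestine. It called 1 T and NK cell marker lower in knockout colon and 0 endothelial markers. Macrophage markers summed to 283 to 2174 CPM with PBS and 370 to 1583 CPM with LPS in wild-type small intestine, and endothelial markers to 402 to 1271 and 266.5 to 687 CPM. T and NK cell markers summed to 0 to 57.5 and 0.257 to 18.6 CPM there, and to 0.246 to 15.9 and 0 to 22.2 CPM in wild-type colon. In knockouts T and NK cell markers summed to 0.0933 to 9.31 CPM with PBS (median 0.809) and 0.371 to 275 CPM with LPS (median 25.8) in small intestine, and to 0 to 230 and 0 to 27.2 CPM in colon. In wild-type colon macrophage markers summed to 284 to 942 and 484.5 to 3284 CPM and endothelial markers to 615 to 947 and 53.9 to 1094 CPM. In knockouts macrophage markers summed to 64.7 to 759 CPM with PBS and 334 to 5876 CPM with LPS in small intestine, and to 146 to 3533 and 359 to 942 CPM in colon. Of 4 B cell markers 3 were tested, and edgeR called 0. Their median log2 fold changes were -0.20 and 4.05 in wild-type small intestine and colon and 3.31 and -6.18 in knockouts. DESeq2 called 1 higher in wild-type colon and 1 lower in knockout colon. In each of these 1 had an unadjusted p under 0.05 (24.8% and 12.4% of all genes). Of the defining markers, Ly6g was at 0 in every library of wild-type small intestine with PBS, Ngp in knockout colon with PBS, Gzma in wild-type colon with either injection, Klrb1c in wild-type colon with LPS and knockout colon with PBS, and Cd3g in knockout colon with LPS.

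Of 5 fibroblast markers tested, the collagen genes Col1a1 and Col1a2 were called lower with LPS in wild-type small intestine (-2.45 ± 0.73 and -2.16 ± 0.64, edgeR adjusted p = 0.0365 and 0.0335) and in wild-type colon (-3.18 ± 0.73 and -2.76 ± 0.63, adjusted p = 0.00666 and 0.00679), and none in knockouts, where 2 had an unadjusted p under 0.05 in small intestine and 0 in colon, and DESeq2 called 0. The 5 summed to 627 to 8969 CPM with LPS in wild-type small intestine and to 339 to 8583 CPM in wild-type colon, below every PBS library of colon. In knockouts they summed to 482 to 10980 CPM with PBS and 1344 to 7389 CPM with LPS in small intestine and to 1205 to 14760 and 1251 to 14960 CPM in colon. The 3 mesothelial markers summed to 470.6 to 2280 CPM with PBS and 143.8 to 317.3 CPM with LPS in wild-type small intestine (median log2 fold change -3.34), and the 2 markers of interstitial cells of Cajal to 77.65 to 307.1 and 10.69 to 55.97 CPM in wild-type colon (median -2.74), each without overlap. By edgeR 0 of either list were called, 2 of the 3 and 2 of the 2 had an unadjusted p under 0.05, and DESeq2 called 1 lower in each. Of the 5 glial markers Gfap rose in wild-type small intestine, by 2.58 ± 0.63 (edgeR adjusted p = 0.00928), while the median over the 5 was -1.14 and DESeq2 called 1 higher and 1 lower. The part of these shifts in the Gbp results was not tested.

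Marker sums were also read library by library. In wild-type small intestine, LPS mouse 16 had the fewest neutrophil marker counts (7.41 CPM) and the fewest macrophage marker counts (370 CPM), and the highest Gbp2 (4922 CPM), while mouse 8 had the highest neutrophil sum (822 CPM) and the highest Gbp5 (145 CPM). In wild-type colon, mice 5 and 16 had neutrophil sums of 9.32 and 10.1 CPM with Gbp2 at 4897 and 4431 CPM, and mice 3 and 8 had 2315 and 1958 CPM with Gbp2 at 1740 and 1110 CPM. Colon mouse 5 also had the lowest endothelial sum, 53.9 CPM. At 2 h, the small intestine LPS library with the lowest endothelial (7.035 CPM) and macrophage (299 CPM) sums, replicate 2, had 104 CPM of Gbp5. Replicate 4 had 0 neutrophil marker counts with 102 CPM of Gbp5, and replicate 1, with the highest neutrophil sum (158 CPM), had the lowest Gbp2 and Gbp5 of the 4 (263 and 64.5 CPM). In knockout small intestine, mouse 17 had the highest neutrophil sum (1714 CPM) with Gbp2 at 1193 CPM, and mouse 11 the highest macrophage sum (5876 CPM) with the lowest Gbp2 (762 CPM). In knockout colon, mice 11, 17, 2 and 21 had neutrophil sums of 2.09, 58.1, 301 and 480 CPM, and mouse 11 had the lowest Gbp2 (525.5 CPM). Mouse 2, with the highest Gbp2 there (2795 CPM), also had the lowest endothelial sum (392 CPM) and the highest macrophage sum (942 CPM), and their part in the result was not tested. Fibroblast marker sums also differed between the LPS libraries of one group. In knockout colon mouse 2 had 1251 CPM of them and mice 11, 17 and 21 had 14960, 14600 and 14380 CPM, and in wild-type colon mice 5, 8, 3, 13 and 16 had 339.2, 624.4, 2733, 6999 and 8583 CPM. Glial marker sums in the LPS libraries were 987.4, 3448, 1249 and 573.2 CPM in wild-type small intestine (mice 3, 8, 16 and 13) and 1119, 1974, 753.5, 1278 and 1855 CPM in wild-type colon (mice 13, 16, 3, 5 and 8). In knockout small intestine they were 1286, 479.4, 577.8, 623.8 and 395.6 CPM (mice 11, 17, 10, 6 and 21). In knockout colon mouse 2 had 2155 CPM and mice 11, 17 and 21 had 732, 769.4 and 564.9 CPM. The part of these sums in the Gbp results was not tested.

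**Figure D5:**
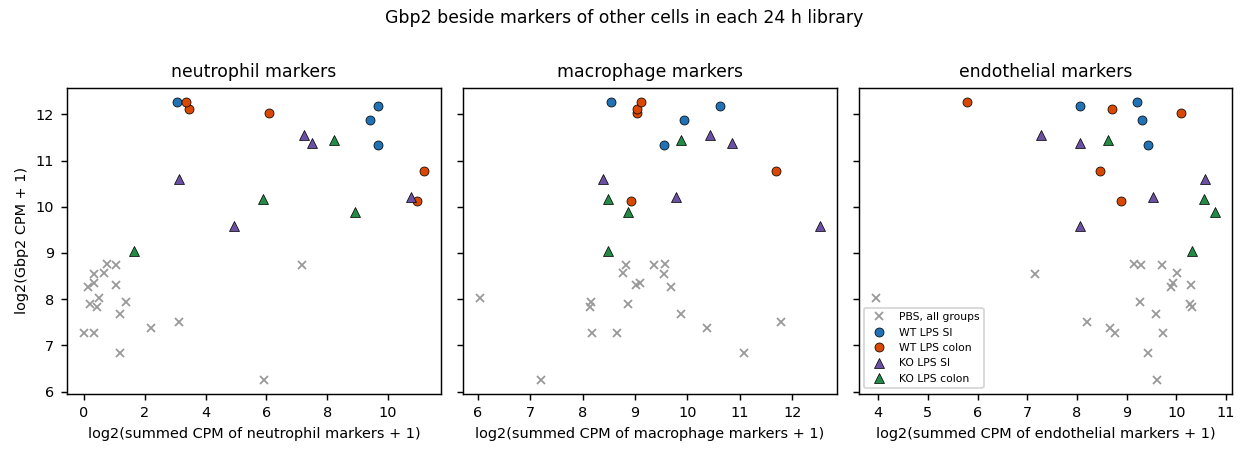
Gbp2 as log2(CPM + 1) against the summed CPM of neutrophil, macrophage and endothelial markers, as log2(sum + 1), in each library at 24 h. Blue and orange circles are wild-type LPS libraries, triangles knockout LPS libraries and crosses all PBS libraries. Gbp2 was at least 525.5 CPM in LPS libraries and at most 434.6 CPM in PBS libraries. Neutrophil marker sums were at most 143.8 CPM in PBS libraries and reached 2315 CPM in LPS libraries, so high sums hold no PBS library to compare. The part of these cells in the Gbp2 levels was not tested.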

How the data were processed

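The authors deposited raw read counts per gene from Smart-seq2 libraries of enteric glia, in 1 table for the untreated and 2 h libraries and 1 for the 24 h libraries. Reads were trimmed with Trim Galore 0.4.4 and aligned with STAR 2.5.3, GRCm38 is the genome build and DESeq2 is named, all per the submitters' processing notes. The counter, its annotation and its use of strand are not given in the sources used here. The counts are of reads, not of molecules, so limits drawn from them cover counting error only.

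Each experiment was fitted on its own, over all its groups (16 libraries at 2 h, 37 at 24 h), with edgeR 4.0.16 in R 4.3.3: filterByExpr, TMM factors, glmQLFit and glmQLFTest on group means with no covariate, two-sided, with Benjamini-Hochberg adjustment over all genes tested. A gene was called at an adjusted p under 0.05. CPM are the counts scaled with TMM factors. Fits were checked on simulated counts. Alternatives were RLE factors, no filter on low counts, the DESeq2 1.42.0 Wald test, sex as a covariate, replicate blocks, the compared groups alone, each library left out, mice numbered 11 and above alone or this division as a covariate, and leaving out mouse 3.

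The members and lists (immunity-related GTPases with Gbp2b, interferon signalling, inflammasome and caspase-11, cell markers) were chosen with earlier results of these data known. Some genes of these lists are not reported here and were left out of their counts and sums. Every member is named. From each list the called genes of largest and smallest change are named, with Irf1, Ifng, Irgm1, Igtp, Iigp1, Casp4 and Gsdmd; further called genes were named after their values were seen. Likeness was ranked among genes with a mean log2 CPM of at least 3, with a prior count of 2. Both regions of 1 mouse share an animal: deviations from group means correlated at 0.121 on average over 15 such pairs, against -0.023 between different mice.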

Additional observations from a re-analysis of the deposited data

Results flagged for a closer look

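In 3 of 108 sets of a member and a group, 1 library lay far from the others of its group by Dixon's test, which chance alone gives in about 1 of 20 groups. Gbp10 reached 37.56 CPM in knockout small intestine with LPS in mouse 6, where the next library had 17.61 CPM. Gbp9 reached 148.3 CPM in the same group in mouse 21, where the next had 88.58 CPM. Gbp4 reached 68.03 CPM in knockout colon with PBS in mouse 15, where the next had 22.59 CPM, and this library also held the most Gpr37 counts of the knockouts, 9. The causes were not tested.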

How the results depend on the processing

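No member changed direction where it was called. Among 1620 values with 1 library left out, 35 lost a call and 4 gained one, and among 1080 under the other alternatives 17 lost and 14 gained one. Counts of members called at 2 h were 1 in small intestine, with 0 under a sex covariate, 2 under the replicate block and 3 by DESeq2, and 1 in colon, with 0 under the replicate block and 0 with the groups compared alone. In knockouts at 24 h the count in small intestine was 3, with 0 in mice numbered 11 and above and 6 by DESeq2 (2 with the groups alone, 1 of them among the 3), and in colon 4, with 1 in those mice and 0 with the groups compared alone. Knockout against wild type in colon gave 0, with 2 in those mice and 1 by DESeq2 under LPS, and 1 by DESeq2 under PBS. With 1 library left out the counts ran from 0 to 2 (2 h small intestine), 0 to 1 (2 h colon), 6 to 7 and 5 to 5 (wild-type small intestine and colon), 0 to 4 and 0 to 5 (knockouts), and stayed at 0 in the other comparisons. Some alternatives leave fewer samples, and neither this nor any other cause was tested.

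At 2 h the replicate block used the number in the descriptions, which names no shared animal. Deviations of libraries with the same number correlated at 0.06 on average (5 of 24 pairs over 0.1), and those with different numbers at -0.019 (0 of 72 over 0.1). The block called Gbp2 and Gbp6 in small intestine (adjusted p = 0.00882 and 0.0101) and not Gbp5 (0.0916, and 0.0877 in colon). At 24 h a replicate block on the mouse number called 0 members between regions, and one on the number in the titles, which names no shared animal, called 6, 5, 3 and 4 in the LPS comparisons. Over all genes, calls were 144 and 102 at 2 h against 280 and 298 by DESeq2 (63 in colon with the groups alone), 1069 and 1186 in wild types against 1894 and 2306 (412 in colon alone), and 107 in each knockout region against 535 and 496 (47 and 7 alone). Knockout against wild type under LPS gave 2 and 64, against 181 and 761 by DESeq2 and 0 alone. Gbp8 and Gbp10 had low counts, which limits the precision of their values.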

Other observations

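Gbp2b, the family member outside the rule, lay chiefly in the submucosal plexus of untreated mice. It had 113 to 357 CPM (median 253, 6 libraries) there in small intestine and at most 7.9 CPM in the myenteric plexus. In colon it had 0 to 117 CPM (median 85.1, 5 libraries) in the submucosal and at most 10.6 CPM in the myenteric plexus. At 24 h Gbp2b stood at 7.27, 5.33, 2.74 and 2.03 CPM in wild-type colon with PBS and at most 0.24 CPM in the 5 LPS libraries. The groups did not overlap, and the log2 fold change of -5.19 ± 2.11 was not called (edgeR adjusted p = 0.117). Gbp2 in untreated mice had medians of 204 CPM in the myenteric and 104 CPM in the submucosal plexus of small intestine, and of 376 and 351 CPM in those of colon. Markers of other cells differed between these plexuses too. In small intestine the median sums in submucosal and myenteric libraries were 721.5 and 1.836 CPM for T and NK cells, 1104 and 2.915 CPM for B cells, 11870 and 1069 CPM for macrophages and 178.1 and 1422 CPM for glia. In colon they were 168.1 and 0.4908 CPM for T and NK cells, 237.1 and 0.5253 CPM for B cells, 6387 and 358.4 CPM for macrophages and 168.9 and 1315 CPM for glia. Their part in the Gbp2b and Gbp2 levels was not tested.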
